A study of Danio rerio with 4 samples.

Results

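The genes described here are the protein genes of the zebrafish mitochondrial genome, found as the Ensembl identifiers whose symbol, in any case, begins with mt- followed by nd, co, atp, cyb, rnr or t. The rule found 13 genes of 35066 Ensembl identifiers, 7 for complex I, 1 for complex III, 3 for complex IV and 2 for complex V. It found 0 mitochondrial rRNAs and 0 tRNAs, because the table that pairs identifiers with symbols named none, and these RNAs are not analysed here. The libraries were made from testis RNA of AB zebrafish, wild type and 5 months old. They were 1 control and 3 exposed libraries, each of the 3 after 30 days of exposure. The exposures were dibutyl phthalate (DBP), diisobutyl phthalate (DiBP) and both (DBP+DiBP), with 1 library each. DBP and DiBP are plasticizers with linear and branched butyl chains. The labels call the fish male and the design text calls them female, and neither gives a dose or says whether fish were pooled. With 1 library per group, every difference below describes these libraries and has no replicate check and no p-value.

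The mitochondrial genome is transcribed from both strands into long precursors, which are cut into rRNAs, tRNAs and mRNAs. Its protein genes encode the hydrophobic cores of respiratory complexes I, III, IV and V, and every other subunit, including all of complex II, comes from the nucleus. Complex I passes electrons from NADH to ubiquinone, complex III passes them on to cytochrome c, complex IV reduces oxygen, and complex V makes ATP from the proton gradient. In the testis, mitochondria power germ cells and the sperm flagellum, and in Leydig cells they carry out the opening step of steroid synthesis.

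The 13 genes had 10 distinct sets of values. MT-ATP6, MT-CO3 and mt-atp8 shared identical values in every library, as did MT-ND4 and mt-nd4l, and these genes neighbour each other in the RefSeq mitochondrial annotation. MT-ND2 and MT-ND3 each shared their values with an Ensembl identifier that has no symbol, and so did the MT-ATP6 group. Genes with shared values cannot be told apart here, so they are counted as 1 feature, giving 6 features of complex I and 4 of the other complexes. Values are taken as FPKM, fragments scaled to gene length and library size, a unit read from the values because the files do not name it. Calls of higher or lower mean a change of 2-fold or more on the log2(FPKM + 1) scale, and all 10 features were among the 23405 that averaged at least 1 FPKM and were compared.

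In control testis the mitochondrial genes were among the most abundant transcripts per length, and their levels differed 63.7-fold from the highest to the lowest. MT-CO2 (ENSDARG00000063908), the complex IV subunit that takes electrons from cytochrome c, had 11610 FPKM in control and ranked 1 among all features. MT-CO1 (ENSDARG00000063905), the catalytic core of complex IV, had 6693 FPKM and ranked 3, and the MT-ATP6, MT-CO3 and mt-atp8 feature had 4945 FPKM and ranked 5. MT-CYB (ENSDARG00000063924), the cytochrome b of complex III, followed with 2743 FPKM. All 6 complex I features lay below these 4, from 1587 FPKM for MT-ND3 (ENSDARG00000063914) down to 182 FPKM for MT-ND5 (ENSDARG00000063921), which ranked 376 among all features. MT-ND6 (ENSDARG00000063922), a complex I subunit and the only protein gene on the opposite strand of the mitochondrial genome, stood at 755 FPKM. Since the strand setting of the counting is not stated, MT-ND6 reads cannot be told apart from transcripts of the other strand.

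**Figure D1:**
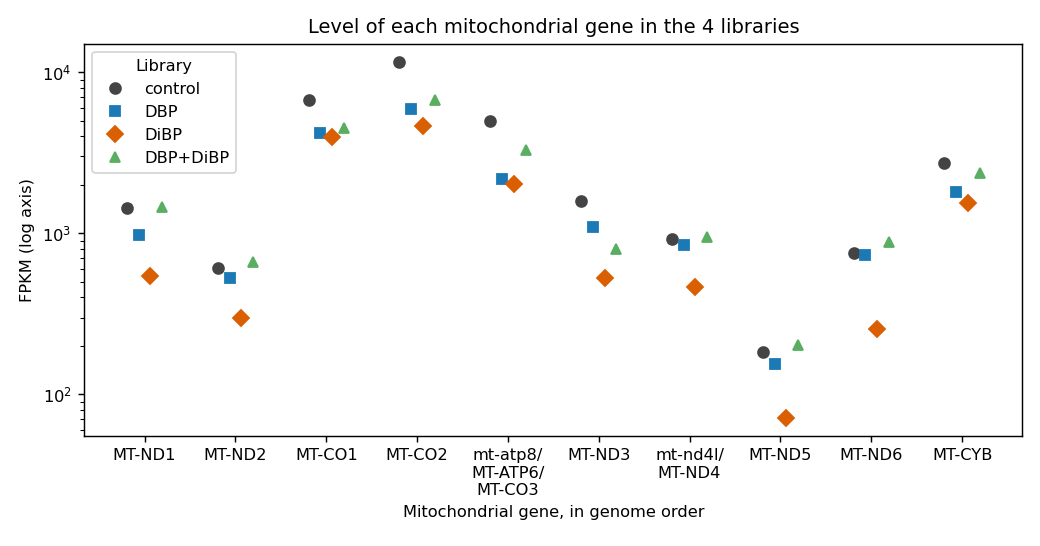
FPKM (log axis) of each of the 10 mitochondrial features, in genome order, with 1 point per library. The DiBP library has the lowest value for every feature, and control has the highest for MT-CO1, MT-CO2, the MT-ATP6 feature, MT-ND3 and MT-CYB.

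The 4 features of complexes III, IV and V kept 1 order of level in every library, MT-CO2 above MT-CO1, then the MT-ATP6 feature, then MT-CYB. Within complex I the order varied, at the top as well, while MT-ND5 was last in every library. MT-ND3 was the highest complex I feature in control and DBP, ranked 6 of the 10 in DiBP, and ranked 8 in DBP+DiBP. Without replicates, no spread is known against which to judge neighbours in these orders.

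The summed level of the 10 features was lower in each exposed library than in control. It was 31492 FPKM in control, 18436 after DBP, 14330 after DiBP and 21834 after both. As a share of all FPKM, with identical values counted once, the mitochondrial features made up 5.67% of the control library, 3.44% of DBP, 2.80% of DiBP and 3.90% of DBP+DiBP. The sum was thus 58.5%, 45.5% and 69.3% of the control sum after DBP, DiBP and both. MT-CO2 alone was 36.9% of the mitochondrial sum in control and 32.1%, 32.6% and 31.0% of it in DBP, DiBP and DBP+DiBP, so the sum follows the most abundant genes. In a whole tissue, fewer mitochondria-rich cells and less mitochondrial RNA per cell cannot be told apart.

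The DBP library was set against control to ask how these transcripts differed after exposure to the linear phthalate. The 4 features of complexes III, IV and V had log2 ratios from -1.20 to -0.60, of which 1 passed 2-fold. The MT-ATP6, MT-CO3 and mt-atp8 feature, which holds the proton channel of ATP synthase and a complex IV subunit, had 2158 FPKM in DBP against 4945 in control, a log2 ratio of -1.20. It was the 1 feature of 10 lower past 2-fold, beside 4.5% of all compared features that were lower, and 0 were higher, beside 6.68%. MT-CO2 was just short of the threshold, at 5926 against 11610 FPKM (log2 ratio -0.97). MT-CO1 had 4195 against 6693 FPKM (-0.67), and MT-CYB had 1813 against 2743 (-0.60).

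Complex I features in DBP had log2 ratios from -0.56 to -0.05, with a median of -0.22, and none passed 2-fold. MT-ND1, a core subunit next to the ubiquinone site, had 979 FPKM in DBP and 1446 in control (-0.56). MT-ND3 had 1102 and 1587 FPKM (-0.53). The other 4 were closer to control: MT-ND6 stood at 730 against 755 FPKM (-0.05, turning to 0.0038 with library totals made equal), and MT-ND4 with mt-nd4l, of the membrane arm of complex I, at 847 against 918 (-0.12). The median over all 10 features was -0.54, and the median over all compared features was 0.05.

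For the branched phthalate the same question was asked by setting DiBP against control. Of the 10 features 7 were lower past 2-fold, beside 3.86% of all compared features, and 0 were higher, beside 4.6%. The 7 were MT-ND1, MT-ND2, MT-ND3, MT-ND5, MT-ND6, MT-CO2 and the MT-ATP6 feature. Ratios ran from -1.59 to -0.76 on the log2 scale with a median of -1.31, against a median of -0.01 over all compared features.

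MT-ND3, a small subunit near the ubiquinone site, had 527 FPKM in DiBP against 1587 in control (log2 ratio -1.59), the lowest ratio of the 10. MT-ND6 had a log2 ratio of -1.56 at 255 FPKM, MT-ND1 of -1.41 at 544 FPKM and MT-ND5 of -1.34 at 71.3 FPKM. These complex I genes were at 33.2% to 39.1% of their control levels. MT-ND2, a proton-pumping subunit of complex I (ENSDARG00000063899), was at 297 against 613 FPKM (-1.04), close to the threshold, and it did not pass with library totals made equal (-0.92). The MT-ND4 and mt-nd4l feature was just outside at 465 against 918 FPKM (-0.98). Among the other complexes, MT-CO2 had 4665 FPKM in DiBP (-1.32) and the MT-ATP6 feature 2013 (-1.30), while MT-CO1 had 3957 (-0.76) and MT-CYB 1536 (-0.84).

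**Figure D2:**
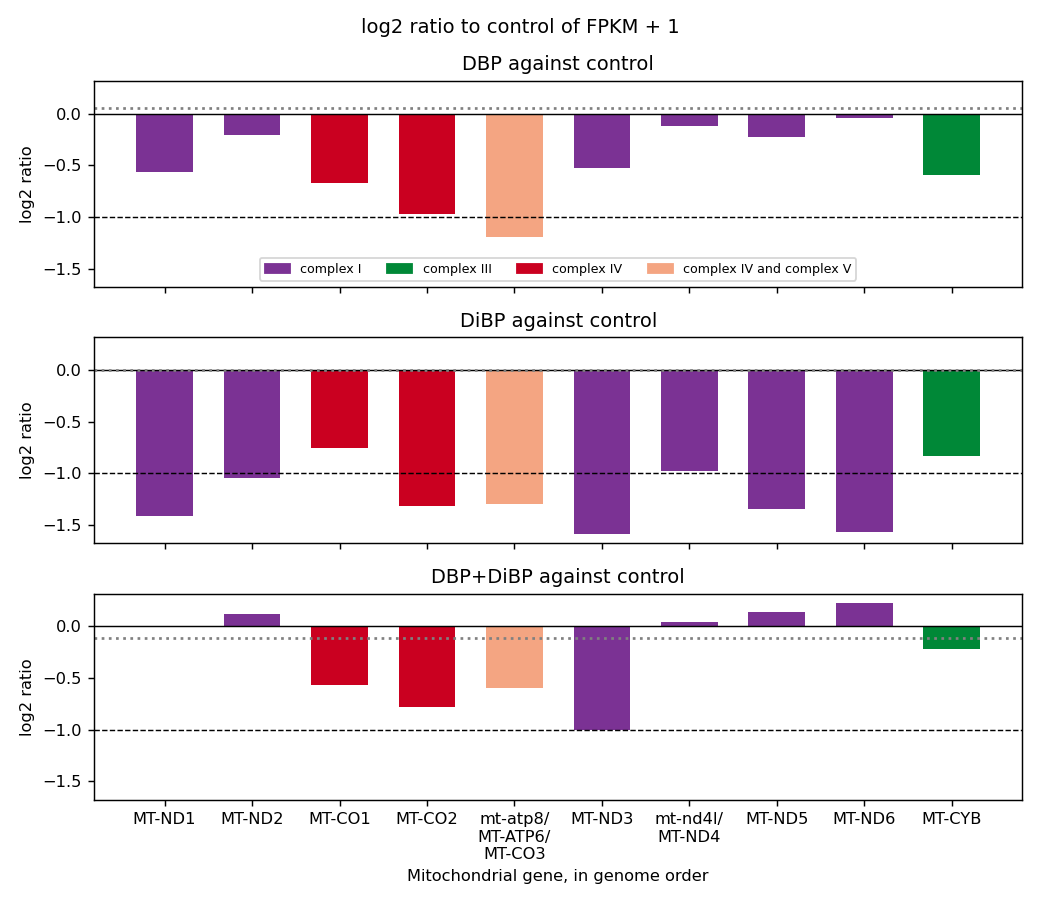
log2 ratio to control of FPKM + 1 for each mitochondrial feature, in genome order, in 3 panels for DBP, DiBP and DBP+DiBP, with bars coloured by respiratory complex. The dashed line marks 2-fold lower and the dotted line the median of all compared features. In DBP the bars of complex I run from -0.56 for MT-ND1 and -0.53 for MT-ND3 to -0.05 for MT-ND6. Complex I bars are long in DiBP and, except for MT-ND3 at -0.999, near 0 in DBP+DiBP.

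The DBP+DiBP library was set against control to ask about joint exposure. None of the 10 features passed 2-fold in either direction, beside 6.42% of all compared features that were lower and 9.57% that were higher. MT-ND3 lay at the threshold, with 793 FPKM against 1587 (log2 ratio -0.999), and passed it when library totals were made equal (-1.01). MT-CO2 had 6761 FPKM (-0.78), the MT-ATP6 feature 3275 (-0.59) and MT-CO1 4504 (-0.57), none of them past 2-fold. MT-CYB had 2356 FPKM (-0.22). MT-ND6 had 881 FPKM (0.22), MT-ND5 201 (0.14) and MT-ND2 668 (0.12), slightly above control. MT-ND1 at 1452 FPKM (0.01) and the MT-ND4 feature at 943 (0.04) were almost equal to control, and both ratios turned slightly negative when the totals of all other features were made equal. The median of the 10 ratios was -0.11, the same as that of all compared features, and it turned to 0.049 under median-of-ratios scaling, which moved the median of all features by 0.12.

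If the DBP and DiBP ratios added on the log2 scale, joint exposure would have the lowest levels of the 3 exposed libraries. Instead the ratio in DBP+DiBP exceeded the sum of the single ratios for 10 of 10 features. The departure ran from 0.86 for MT-CO1 to 1.98 for MT-ND1, with a median of 1.44, against -0.16 over all compared features. The share of all features with a positive departure was not computed. Such a departure is not particular to the mitochondrial features. The 77 cytosolic ribosomal protein genes had median log2 ratios to control of -0.46 after DBP, -0.61 after DiBP and 0.03 after both. All 3 ratios share the 1 control library, and a high value there raises the departure of a feature. No dose is given, so it is unknown whether joint exposure held each phthalate at the dose used alone.

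The isomers were set side by side, although no dose is given and the difference is one between libraries. The DiBP library had lower values than DBP for all 10 features, and the gap was wider in complex I than in the other complexes. Of the 10 features 3 were lower in DiBP past 2-fold, beside 4.32% of all compared features, and 0 were higher, beside 2.65%. They were MT-ND6 at 255 FPKM in DiBP and 730 in DBP (log2 ratio -1.52), MT-ND5 at 71.3 and 155 (-1.11) and MT-ND3 at 527 and 1102 (-1.06, and -0.99 with library totals made equal). The remaining complex I features had ratios from -0.86 to -0.83. The 4 features of complexes III, IV and V ran from -0.35 for MT-CO2 to -0.08 for MT-CO1, so the ratios of complex I and of the other complexes did not overlap. The complexes other than I were grouped after the values were seen. The 4 features of this group were also the 4 most abundant in every library, so complex and level cannot be told apart in this split.

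DBP+DiBP was also set against each single exposure. Against DBP, 0 of the 10 features passed 2-fold, beside 11.3% of all compared features lower and 10.2% higher. The ratios ran from -0.47 for MT-ND3 to 0.60 for the MT-ATP6 feature, with a median of 0.30. Against DiBP, 5 of 10 were higher, beside 10.5% of all compared features, and 0 were lower, beside 8.19%. The 5 were all complex I features, led by MT-ND6 at 881 against 255 FPKM (log2 ratio 1.79), MT-ND5 at 201 against 71.3 (1.48) and MT-ND1 at 1452 against 544 (1.42). The MT-ND4 feature (1.02) did not pass when library totals were made equal (0.89). MT-ND3 had a ratio of 0.59, and the other complexes lay between 0.19 and 0.70.

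The balance between complex I and the other complexes differed between the libraries, as a ratio within each library shows without any scaling. The geometric mean of the 4 features of complexes III, IV and V was 7.60 times that of the 6 complex I features in control. It was 5.09 times in DBP and 5.51 times in DBP+DiBP, and 9.18 times in DiBP. DBP and DBP+DiBP lay below control and DiBP above it. This split was made after the values were seen, and the 4 features were also the most abundant. Complex and level cannot be told apart here, and without replicates no spread of this ratio is known. MT-ND6 lies between MT-ND5 and MT-CYB among the protein genes. It was at 27.5% of MT-CYB in control, 40.3% in DBP, 37.4% in DBP+DiBP and 16.6% in DiBP. Against MT-ND5 the libraries had the same order with a narrower spread, at 4.14, 4.70, 4.38 and 3.57 times. The pairs of MT-CO2 with MT-CO1 and of MT-ND3 with the MT-ND4 feature had a different pattern. MT-CO2 was at 1.73 times MT-CO1 in control and at 1.41, 1.18 and 1.501 times in DBP, DiBP and DBP+DiBP. MT-ND3 was at 1.73 times the MT-ND4 feature in control, 1.301 after DBP, 1.13 after DiBP and 0.842 after both, the only library in which MT-ND3 was the lower of the pair. Such ratios show unequal change and do not show which gene of a pair changed.

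The nuclear genes for the same complexes did not follow the mitochondrial genes in DiBP, nor, outside complex I, in DBP. Of 90 nuclear respiratory chain genes found, 89 were compared, and 0 of these passed 2-fold in either direction in DBP or in DiBP. Of all compared features, 4.5% were lower and 6.68% higher in DBP, and 3.86% and 4.6% in DiBP. The median log2 ratio of the nuclear genes was -0.08 in both, beside -0.54 and -1.31 for the mitochondrial genes. Other scalings moved the median of all features by up to 0.19, reached in DBP+DiBP against DBP, and by up to 0.16 against control. List medians nearer to 0 than 0.19 are given no direction here or below. In DBP 1 nuclear gene of the 89 had a ratio below the mitochondrial median, and in DiBP 0 did. The summed FPKM of the mitochondrial features was 2.01 times that of the 89 nuclear genes in control, and 1.19, 0.978 and 1.23 times after DBP, DiBP and both.

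By complex, the 37 nuclear genes of complex I had a median of -0.03 in DBP and -0.08 in DiBP, with a lowest ratio of -0.48 in DiBP, above the highest mitochondrial complex I ratio of -0.98. In DBP the nuclear complex I ratios ran from -0.47 to 0.36 and overlapped the mitochondrial ones. MT-ND6 (-0.05), the MT-ND4 feature (-0.12), MT-ND2 (-0.21) and MT-ND5 (-0.23) lay within that range, and MT-ND1 (-0.56) and MT-ND3 (-0.53) below it. Nuclear genes of complex III numbered 9 (median -0.15 in DBP, -0.07 in DiBP), of complex IV 20 (0.01 and -0.00) and of complex V 18 (-0.09 and -0.26). The 5 genes of complex II, which has no mitochondrially encoded subunit, had medians of 0.03 and -0.06.

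**Figure D3:**
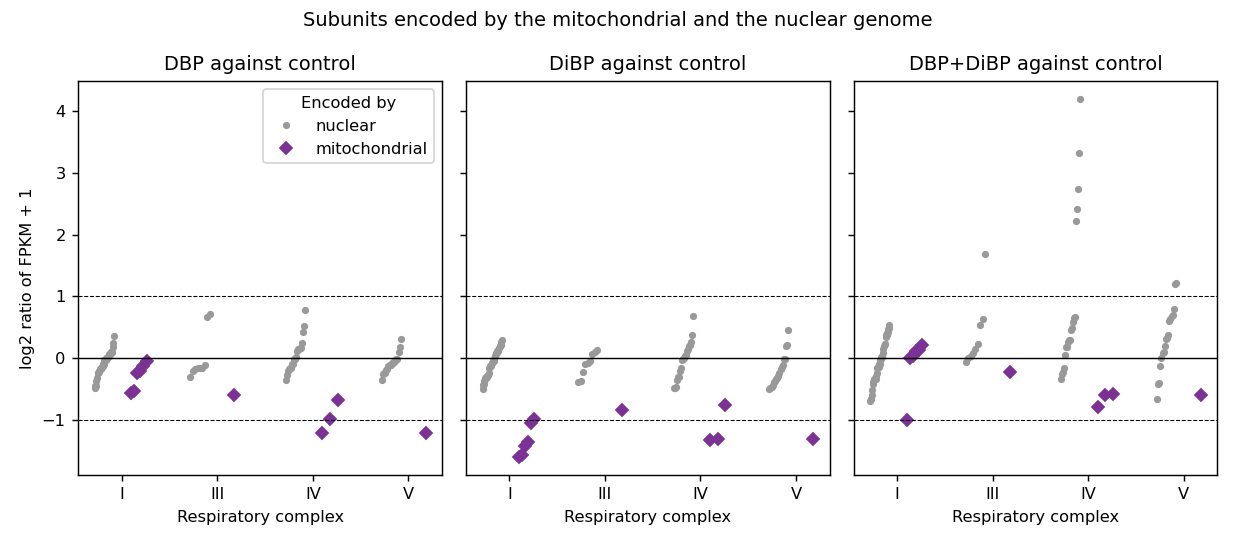
log2 ratio to control of FPKM + 1 for subunits of complexes I, III, IV and V encoded by the nuclear genome (grey circles) and the mitochondrial genome (purple diamonds), in 3 panels for DBP, DiBP and DBP+DiBP. The MT-ATP6, MT-CO3 and mt-atp8 feature is drawn under both IV and V, and dashed lines mark 2-fold. In DiBP all mitochondrial points lie below all nuclear points of their complex, and in DBP+DiBP some nuclear complex IV genes lie above 2.

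In DBP+DiBP 8 of the 89 nuclear genes were higher past 2-fold, near the 9.57% of all compared features, and 1 was lower, beside 6.42%, with a median of 0.16. These counts are thus no result about the nuclear respiratory chain as a group. By complex the nuclear medians there were -0.09 for I, 0.28 for II, 0.16 for III, 0.38 for IV and 0.32 for V. The mitochondrial features of complexes IV and V had negative ratios in that library, from -0.78 to -0.57. The 8 higher nuclear genes were 5 of complex IV, 2 of complex V and 1 of complex III. They were led by cox4i1l, a copy of the regulatory subunit gene COX4 (216 FPKM against 10.9 in control, log2 ratio 4.19), and ndufa4b, a small complex IV subunit gene (162 against 15.4, 3.31). In complex V they were atp5mc1, a gene of the proton-carrying c ring (352 against 150, 1.22), and ATP5F1C, the central stalk subunit (260 against 113, 1.20), and in complex III the hinge subunit gene UQCRH (259 against 80.2, 1.68). The lower one was 1 of the genes named SDHD, a membrane anchor of complex II (4.15 against 17.9, -1.88), while the other gene of that name was at 58.5 against 47.9. In the same library 12 of 13 gut and liver markers and 9 of 12 leukocyte markers were higher past 2-fold, and the part of such cells in these values was not tested.

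Genes that copy or transcribe mitochondrial DNA, or process mitochondrial RNA, were mostly within 2-fold of control. So were most of all compared features, of which 3.86% to 6.42% were lower and 4.6% to 9.57% higher in an exposed library. Of 7 mitochondrial transcription genes compared, 0 passed in any exposed library, with medians of -0.10, -0.21 and -0.09 after DBP, DiBP and both. The roles given here for genes of mitochondrial RNA and DNA handling are known mainly from mammals. TFAM, which packages mitochondrial DNA and starts its transcription, had 37.6 FPKM in control and 35.0, 28.0 and 22.4 after DBP, DiBP and both. POLRMT, the mitochondrial RNA polymerase, had 2.64 FPKM in control and 2.88, 3.74 and 2.42 in the same order. The initiation factor tfb2m was lowest in DBP, where it had 3.85 FPKM and control had 7.92 (log2 ratio -0.88). The elongation factor TEFM had 3.35 FPKM in control and 1.92, 2.98 and 1.83 in DBP, DiBP and DBP+DiBP, and TFB1M, which methylates the small mitochondrial rRNA, had 9.47 and 6.90, 7.92 and 8.92.

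Of 27 genes of mitochondrial RNA processing and decay, 0 passed 2-fold in any exposed library, with medians from -0.07 to -0.04. LRPPRC, which together with SLIRP stabilises mitochondrial mRNAs, had 9.36 FPKM in control and 13.7, 12.3 and 14.5 in DBP, DiBP and DBP+DiBP. SLIRP had 85.2 FPKM in control and 89.7, 94.95 and 61.3. ELAC2, which cuts the 3′ ends of tRNAs out of the precursors, had 10.6 FPKM in control and 18.5, 16.8 and 11.6, and MTPAP, the mitochondrial poly(A) polymerase, had 3.73 and 3.51, 2.55 and 3.53.

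Of 12 genes of mitochondrial DNA replication and maintenance, 0 passed in DBP or DiBP, with medians of -0.08 and -0.03. In DBP+DiBP 1 was lower, the DNA polymerase gene POLG (3.202 against 8.50 FPKM, log2 ratio -1.18), beside 6.42% of all compared features. The median was -0.39, against -0.11 over all compared features. POLG2, the accessory subunit of POLG, had 4.32 FPKM in control and 3.37, 2.78 and 2.78 in DBP, DiBP and DBP+DiBP. The helicase TWNK had 6.34 and 3.54, 5.49 and 4.57, and the single-strand binding protein SSBP1 had 53.7 and 44.9, 40.8 and 33.2. DNA copy number itself was not measured.

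Of the 4 compared regulators of mitochondrial biogenesis, 1 was lower past 2-fold in DBP and in DBP+DiBP, beside 4.5% and 6.42% of all compared features. This was pprc1, a coactivator of the PGC-1 family (3.78 against 10.8 FPKM in DBP, log2 ratio -1.30, and 4.75 in DBP+DiBP, -1.04). In DiBP pprc1 had 6.36 FPKM (-0.68). ppargc1b, another PGC-1 family coactivator, had 1.73 FPKM in control and 0.837, 1.05 and 2.26 in DBP, DiBP and DBP+DiBP. NRF1, a transcription factor for nuclear respiratory genes, had 27.4 FPKM in control and 24.1, 30.2 and 18.7. PPARGC1A and the nuclear receptor ESRRA averaged under 1 FPKM and were not compared.

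Mitochondrial mRNAs are translated by their own ribosomes, whose proteins come from the nucleus. Of 74 mitochondrial ribosomal protein genes, 2 were lower past 2-fold in DBP, no more than the 4.5% of all compared features, and 0 in DiBP and DBP+DiBP, with medians of -0.26, -0.28 and -0.18. The 2 were MRPL2 (21.5 against 51.3 FPKM, log2 ratio -1.22) and mrpl20 (52.8 against 107, -1.0002). Of 26 translation factors and aminoacyl-tRNA synthetases, 0 passed in DBP or DiBP and 1 was lower in DBP+DiBP, the tryptophan synthetase WARS2, whose values are shared with another identifier (2.26 against 8.04 FPKM). Of 42 assembly factors of the respiratory chain, 1 was lower in DiBP, COA4 of complex IV assembly (21.6 against 45.1 FPKM, -1.03), and 1 in DBP+DiBP, coa3b (20.2 against 42.3, -1.03). These single genes are no more than the shares of all compared features that were lower, 3.86% in DiBP and 6.42% in DBP+DiBP.

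**Figure D4:**
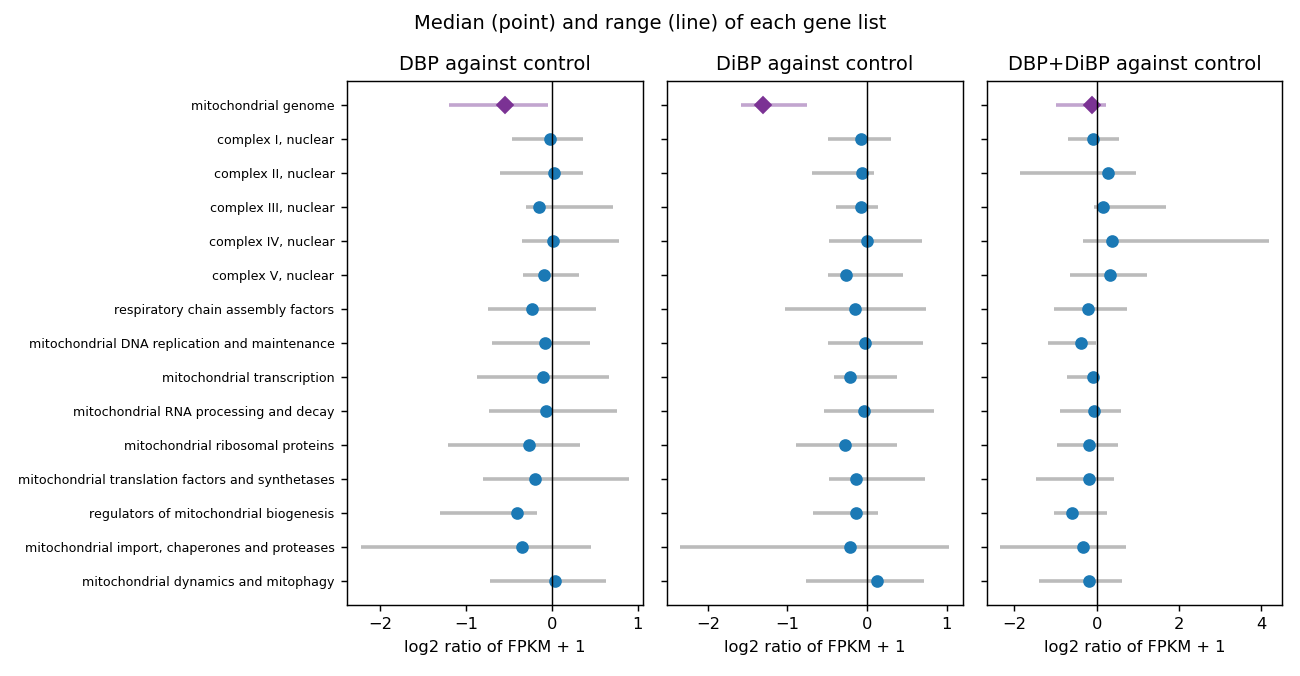
Median (point) and range (line) of the log2 ratio to control of FPKM + 1 for the 10 mitochondrial features (purple, top) and 14 lists of nuclear genes with mitochondrial roles, in 3 panels for DBP, DiBP and DBP+DiBP. In DiBP the mitochondrial median of -1.31 lies below the medians of all 14 lists, which range down to -0.28.

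The most abundant features other than the 10 described here also had negative median ratios in DBP and DiBP. They may include mitochondrial RNAs without a symbol. The 56 other features that averaged at least 1000 FPKM had median log2 ratios of -0.37, -0.54 and 0.04 after DBP, DiBP and both. Those from 100 to 1000 FPKM, of which there were 688, had medians of 0.06, 0.04 and -0.23. Cytosolic ribosomal protein genes, 77 in number, had medians of -0.46, -0.61 and 0.03. Ribosomal protein genes such as RPL12, RPL35, RPL3, rps27a, RPLP1 and RPL24 are also among the 56 features. These sets overlap, so their medians are not separate observations. The ribosomal protein genes and the mitochondrial complex I features, with medians of -0.22, -1.38 and 0.08, thus both had negative medians in DBP and DiBP and medians near 0 in DBP+DiBP. The difference between DiBP and DBP was smaller for the ribosomal protein genes, with a median of -0.13 against -0.96 for the 6 complex I features. The other 4 mitochondrial features had a median of -0.17, near that of the ribosomal protein genes. Against control, these 4 had medians of -0.82, -1.07 and -0.58 after DBP, DiBP and both, so theirs was not near 0 in DBP+DiBP. Among the 744 other features of at least 100 FPKM, 4.7% were lower past 2-fold in DiBP than in control, near the share of all compared features.

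**Figure D5:**
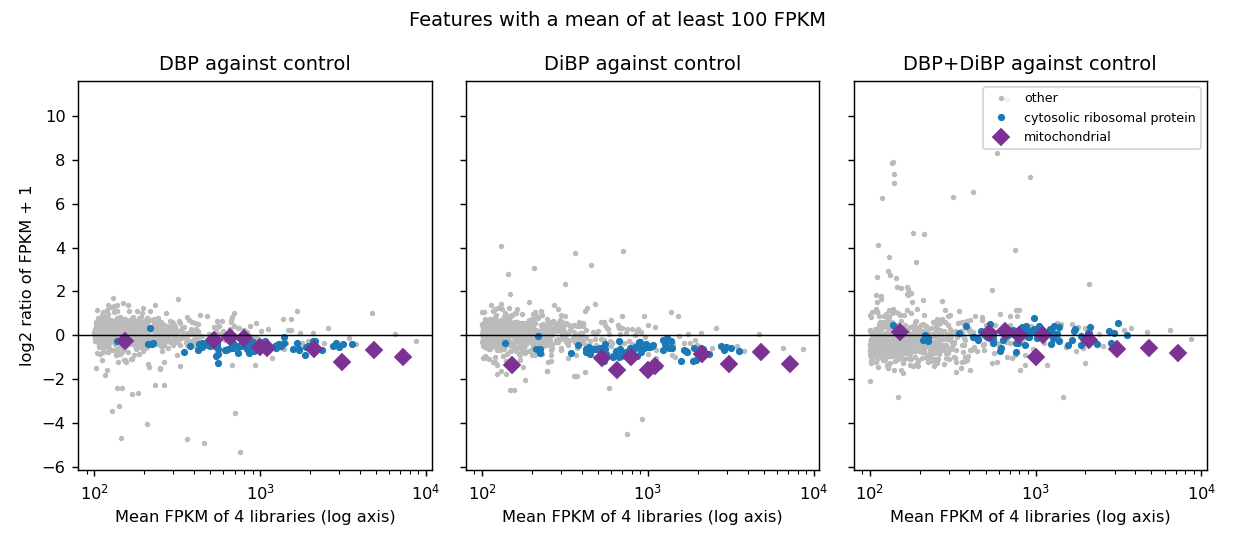
log2 ratio to control of FPKM + 1 against the mean FPKM of the 4 libraries (log axis) for features of at least 100 FPKM, in 3 panels for DBP, DiBP and DBP+DiBP. Mitochondrial features are purple diamonds, cytosolic ribosomal protein genes blue and all others grey. In DiBP the mitochondrial features lie between -1.59 and -0.76, at or below most ribosomal protein genes, whose median is -0.61.

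The genes whose 3 ratios to control lay closest to the median mitochondrial profile, by Euclidean distance among 1455 named features of at least 50 FPKM, were mostly ribosomal protein genes. The closest was rps20, at 2539 FPKM in control and 1850, 1166 and 2256 FPKM after DBP, DiBP and both (distance 0.21). The list of 10 also held RPL39, whose values are shared with another identifier, RPS23, RPL23, rps27.1, RPL8, RPL36AL and RSL24D1, a ribosome biogenesis factor. The other 2 were genes of mitochondrial protein import. TIMM8B, an import chaperone of the intermembrane space, had 71.6, 49.4, 34.8 and 67.2 FPKM in the same order of libraries, and tomm7, a small subunit of the outer membrane translocase, had 77.8, 53.4, 38.1 and 63.4. Likeness here covers 3 ratios over 4 libraries with a shared control. The profile also pools unlike sets. After DBP, DiBP and both, complex I features had medians of -0.22, -1.38 and 0.08, and the other 4 features -0.82, -1.07 and -0.58. Single members such as MT-ND3, at -0.999 in DBP+DiBP, lie farther from the profile than the 10 genes listed. The list thus describes likeness to a pooled median and not to each mitochondrial gene.

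Markers of cell types differed between the libraries, and their part in the mitochondrial levels was not tested. Of all compared features, 4.5% were lower and 6.68% higher in DBP, 3.86% and 4.6% in DiBP, and 6.42% and 9.57% in DBP+DiBP. Skeletal muscle markers summed to 66.7 FPKM in control, 58.5 after DBP, 151 after DiBP and 38.0 after both. Of 16 compared, 7 were higher past 2-fold in DiBP, beside 4.6% of all compared features, and 0 lower, though 6 of the 16 had negative ratios. In DBP 1 was higher and 0 lower, and in DBP+DiBP 1 was higher and 4 lower. A copy of TNNI2 was listed at 0 in DBP+DiBP. Gut and liver markers summed to 117, 85.3, 83.8 and 3395 FPKM in the same order, with none of 13 at 0. Leukocyte markers summed to 199.98, 235, 264 and 614 FPKM, and a copy of MPEG1 was listed at 0 in control, DBP and DBP+DiBP. Erythrocyte markers summed to 34.3, 55.9, 35.4 and 170 FPKM, and alas2 among them shares its values with the pancreatic marker ela2. The haemoglobin gene HBE1, which is not in that list, had 88.2, 158, 46.8 and 389 FPKM in the same order. Of the testis itself, spermatogonia and meiosis markers summed to 1901, 2195, 1903 and 923 FPKM, with 0 of 12 past 2-fold in DBP or DiBP and 5 lower in DBP+DiBP. Spermatid and sperm markers summed to 1251, 1784, 1655 and 1155 FPKM. Of these 14, 3 were higher past 2-fold in DBP, 2 higher and 1 lower in DiBP, and 1 higher and 1 lower in DBP+DiBP. Leydig and Sertoli markers, from cells of which the former make steroids in mitochondria, summed to 2532, 3036, 1416 and 868 FPKM, of which the Leydig hormone insl3 gave 2072, 2455, 1044 and 293. In DBP+DiBP 1 of the 12 compared was higher past 2-fold, the Sertoli factor gsdf at 340 against 55.0 FPKM, and 3 were lower. In DBP 1 of the 12 was higher and 0 lower, and in DiBP 0 were higher and 1 lower. None of the testis markers was at 0 in any library.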

How the data were processed

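Per the labels' protocols, libraries were made with a NEBNext Ultra kit from RNeasy-extracted RNA and read as paired ends. The aligner HISAT2, the counter HTSeq 0.6.1 and the assembly GRCz10 are named, per the submitters' processing notes, without saying which step made the values. The authors deposited 1 value per identifier, taken as FPKM from their form (not whole, with unequal totals). The library totals ranged from 547485 to 605447. Absolute depth is unknown, and the spacing of low values gave depths relative to control of 1.05 after DBP, 1.102 after DiBP and 1.08 after both, as rough estimates from peaks of 41, 46 and 37 among 880, 990 and 822 low genes.

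Symbols came from a table of Ensembl identifiers, of which 26996 in the files had one. Genome order came from RefSeq's GRCz12tu annotation, which is not the files' build, so no coordinates are given, and no sequences are shown. Of 49610 identifiers, those with identical values were merged, leaving 42683 features above 0 in some library. Differences are of log2(FPKM + 1) as deposited, called past 2-fold among features of mean FPKM at least 1, computed in Python 3.11.15 with pandas 2.3.3. No test was run, since no group has a replicate. A symbol in capitals lacks its copy letter, so every copy with that symbol counted.

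Members, lists and comparisons were chosen with earlier results of these data known. Named genes were all members, fixed regulators, the 2 highest and 2 lowest called genes of mean FPKM at least 5 per mitochondrial list and exposed library, and the 10 closest profiles. The break at 100 FPKM and the separate count of 13 genes were added after the data were seen. The alternatives were pseudocounts of 0.1 and 5, no filter or a mean of 5 FPKM, and 4 scalings.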

Additional observations from a re-analysis of the deposited data

How the results depend on the processing

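No paired analysis was possible because each group has 1 library and the comparisons come from no test. For the same reason no library could be left out of a group. Of 279 values of the comparisons recomputed under 9 alternatives, 270 kept their direction and their side of 2-fold, or a count within 1.5 times. In DBP against control the count of lower features, 1, was 2 under median-of-ratios scaling. It was also 2 with the median of features of at least 100 FPKM set to 0. With the 13 genes counted separately it was 3, because the MT-ATP6 feature then counts as 3 genes. In DBP+DiBP against control the count of lower features, 0, was 1 with totals made equal, over all features or over all but the members. There the median ratio turned from -0.11 to 0.049 under median-of-ratios scaling and to 0.10 with the median of features of at least 100 FPKM set to 0. In DBP+DiBP against DiBP the median passed 2-fold under those scalings, at 1.03 and 1.07. In DiBP against control the count of lower features stayed between 6 and 9, where the 9 are of the 13 genes counted separately. The median there stayed between -1.32 and -1.19. Of 540 ratios of single features, 527 kept direction and side, 5 dropped under 2-fold, 4 passed it, and 4 that were near 0 changed sign. Each move comes from the changed setting alone, since the deposited values were the same. The alternatives with the 13 genes counted separately and the break at 100 FPKM were chosen after seeing the data.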

Other observations

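Import, quality control and dynamics of mitochondria were within 2-fold for most genes. Of 42 genes of mitochondrial import, chaperones and proteases, 1 was lower in DBP, 4 were lower and 1 higher in DiBP, and 1 was lower in DBP+DiBP, with medians of -0.35, -0.22 and -0.34. Of all compared features 4.5% were lower in DBP, 3.86% lower and 4.6% higher in DiBP, and 6.42% lower in DBP+DiBP. In DiBP the lower ones were TIMM10 (47.0 against 96.7 FPKM in control), an intermembrane chaperone, TIMM8B, tomm7 and TIMM17B, and the higher one was a gene named YME1L1, an inner membrane protease (10.3 against 4.504). TIMM17B, of the inner membrane translocase, had 4.62 FPKM in control and 0.197, 0.106 and 0.107 in DBP, DiBP and DBP+DiBP. It and tomm7 were named after their values were seen. The matrix chaperonin genes were below control in each exposed library. HSPD1 had 47.0 FPKM in control and 26.8, 35.5 and 28.7 in DBP, DiBP and DBP+DiBP, and its partner HSPE1 had 37.8 and 26.5, 22.3 and 19.1. HSPA9, the matrix chaperone of import, had 36.3 FPKM in control and 30.1, 26.1 and 21.3, and the protease LONP1 had 19.1 and 17.4, 21.7 and 15.8.

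Of 14 genes of mitochondrial dynamics and mitophagy, 0 passed 2-fold in DBP or DiBP, with medians of 0.03 and 0.13. In DBP+DiBP 1 of the 14 was lower, mief2, a receptor for the fission machinery (0.895 against 4.04 FPKM), near the 6.42% of all compared features, and the median was -0.18.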
